A study of Rattus norvegicus with 2 samples.

Results

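The genes described here are those of the circadian clock and its immediate outputs that were chosen by name: Dbp, Tef, Hlf, Nr1d1, Nr1d2, Per2, Bhlhe40, Bhlhe41 and Nfil3. The members were all probe sets of a rat Affymetrix U34A array whose annotation names 1 of these 9 genes. They came to 12 probe sets of 8 genes among the 4736 genes with a named probe set, and no probe set annotated to Nfil3 was used here. The series holds 2 samples. In the immobilized group, a male Wistar rat of 15 weeks spent 2 weeks in an immobilization cage. In the control group, a male Wistar rat of the same age spent the same 2 weeks in a metabolic cage with no immobilization. Total RNA of the duodenal mucosa, which the labels call epithelial cells, went to 1 array per animal. Each array stands for a single rat in the labels. Neither pooling of RNA nor the hour at which tissue was taken is given in the sources used here. The groups have no replicates, so the spread between animals is unknown, no p-value is given, and the precision of all values is limited by the number of arrays.

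The mammalian clock is a transcriptional feedback loop. CLOCK and BMAL1 bind E-box sequences and activate the Per and Cry genes, whose proteins in turn inhibit that pair. NR1D1 and NR1D2, also called REV-ERB alpha and beta, close a further loop by repressing Bmal1, while BHLHE40 and BHLHE41 compete at E-boxes. Time of day reaches other genes through DBP, TEF and HLF, activators of the PAR bZIP family that bind D-box sequences, and through NFIL3, a repressor at the same sequences. The intestinal epithelium has such a clock, its transcripts cycle over the day, and feeding time is among its known cues.

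The promoters of 5 of the genes are shown because the loop acts through short sequences in them. Each line gives the 250 bases before a transcription start, 5′ to 3′, from RefSeq on the GRCr8 assembly. The windows lie at chr9:99496994-99497243 on the minus strand for Per2, at chr4:143174200-143174449 on the plus strand for Bhlhe40, at chr10:84229455-84229704 on the minus strand for the second of 2 listed starts of Nr1d1, at chr1:105312006-105312255 on the plus strand for Dbp and at chr7:115206577-115206826 on the plus strand for Tef. Capitals mark matches to the motifs searched.
Per2: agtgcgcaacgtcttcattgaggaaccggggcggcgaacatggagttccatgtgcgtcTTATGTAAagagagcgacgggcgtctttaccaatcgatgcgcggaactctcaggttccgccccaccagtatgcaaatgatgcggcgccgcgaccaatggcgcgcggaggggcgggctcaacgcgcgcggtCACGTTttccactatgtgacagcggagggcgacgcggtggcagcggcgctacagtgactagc
Bhlhe40: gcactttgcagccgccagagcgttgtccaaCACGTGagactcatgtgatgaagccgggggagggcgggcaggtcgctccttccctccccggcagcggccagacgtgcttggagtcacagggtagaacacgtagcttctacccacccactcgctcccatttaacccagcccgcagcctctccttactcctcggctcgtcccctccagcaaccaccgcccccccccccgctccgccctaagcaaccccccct
Nr1d1: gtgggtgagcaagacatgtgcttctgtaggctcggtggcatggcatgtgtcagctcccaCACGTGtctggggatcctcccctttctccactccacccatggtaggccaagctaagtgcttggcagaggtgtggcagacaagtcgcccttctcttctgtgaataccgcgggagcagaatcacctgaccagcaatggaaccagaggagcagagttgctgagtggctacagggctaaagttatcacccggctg
Dbp: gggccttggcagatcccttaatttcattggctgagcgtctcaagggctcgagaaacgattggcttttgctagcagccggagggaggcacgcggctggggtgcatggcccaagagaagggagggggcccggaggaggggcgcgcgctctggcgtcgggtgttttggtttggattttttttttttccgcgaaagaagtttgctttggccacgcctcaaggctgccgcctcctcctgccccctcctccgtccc
Tef: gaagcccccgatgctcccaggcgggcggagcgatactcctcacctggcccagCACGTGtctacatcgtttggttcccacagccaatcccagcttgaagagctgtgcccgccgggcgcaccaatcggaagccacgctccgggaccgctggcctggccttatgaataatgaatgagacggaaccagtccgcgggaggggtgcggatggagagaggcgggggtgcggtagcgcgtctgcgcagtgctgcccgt

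The motifs were searched on both strands as exact letters and did not overlap one another in the members' windows. They were CACGTG for the E-box, CACGTT for the E-box variant known from Per2, TTATGTAA or else TTACGTAA for the D-box, and AGGTCA for the half-site that REV-ERB proteins and other nuclear receptors bind. The table held 9 windows of 8 of the 9 genes, 2 of them for Nr1d1, and Hlf was not among them. The E-box letters were in 4 of the 9 windows, those of Tef, Bhlhe40, Bhlhe41 and the second Nr1d1 start, and in 5.59% of all 33469 windows. The variant was in 2 of the 9, Per2 and the first Nr1d1 start (as AACGTG on the strand shown by the table), and in 4.07% of all windows. The D-box letters were in the Per2 window alone among the 9, 192 to 185 bases before the start, and in 0.932% of all windows. The receptor half-site was in the Nr1d2 window alone among the 9 and in 14.1% of all windows. The Dbp window held none of these letters. These matches describe the sequences and say nothing of whether a factor bound there in these animals.

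The 2 arrays carried nearly the same overall signal, with deposited signal medians of 39.6 in the immobilized rat and 40.2 in the control rat over the 8740 probe sets that are not array controls. For each ratio the immobilized array was multiplied by 1.016, which centres the log2 ratios of probe sets above the floor on 0. Signals were read against a floor of 40.2, the 50th percentile over both arrays, and a ratio needed a signal above it in each rat. A gene with several probe sets was represented by the brightest. Of the 4736 genes 2516 were above the floor on both arrays. The genes of absorptive enterocytes that define the labelled tissue were present, and all 22 villus genes with a probe set exceeded the floor. As a measure of error within an array, the SD of log2 ratios among probe sets of 1 gene was 0.33 with signals under 100 (100 genes) and 0.32 for genes with signals of 100 to 200 (164 genes). This SD leaves out the spread between animals.

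Most of the measurable clock genes had lower signals in the immobilized rat, by small amounts. Both signals of 7 of the 8 genes exceeded the floor, and those of Bhlhe41 did not. Among the 7, 6 were lower in the immobilized rat and Tef was higher, with a median log2 ratio of -0.25. Dbp was the lowest at -0.71 and the only one at least 1.5-fold lower, followed by Nr1d2 at -0.51 and Per2 at -0.37.

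**Figure D1:**
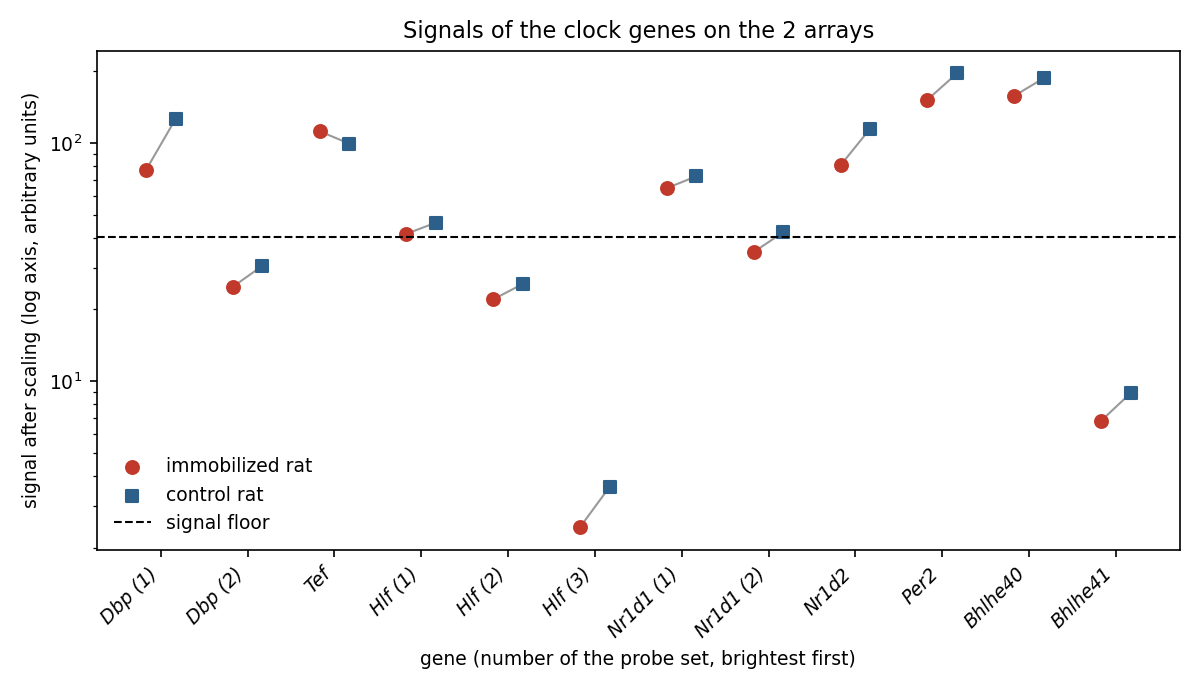
Signal after scaling (log axis, arbitrary units) of each of the 12 probe sets of the 8 clock genes, with the immobilized rat as circles and the control rat as squares. Lines join the 2 arrays of a probe set and the dashed line is the floor of 40.2. In 11 of the 12 probe sets the circle lies below the square, and Tef is the exception. Only 7 of the 12 exceed the floor on both arrays, and 6 of these 7 are lower in the immobilized rat. Of the others, 4 are under the floor on both arrays, and some share a source sequence with another probe set. Without a floor, 53.3% of all 4736 genes were lower in the immobilized rat at their brightest probe set. There are no replicates and no error bars.

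The PAR bZIP activators carry the clock's phase to metabolic genes through D-boxes. Dbp, a factor known for its wide daily swing in liver, had a signal of 75.8 in the immobilized rat and 126.1 in the control rat at its probe set J03179_g_at. This was 1.64-fold lower in the immobilized rat, a log2 ratio of -0.71, or 2.22 times the SD between probe sets. A second Dbp probe set, J03179_at, made from the same source sequence, had signals of 24.5 and 30.5 in the immobilized and the control rat, under the floor on both arrays and lower in the immobilized rat too.

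Tef, a close relative of Dbp, went the other way. Its signal was 110.2 in the immobilized rat and 99.4 in the control rat, a log2 ratio of 0.17, which is 0.54 times the SD. Hlf, the third activator, had signals of 40.9 in the immobilized rat and 46.3 in the control rat at its brightest probe set, S79817mRNA_at, a log2 ratio of -0.16. These signals lie next to the floor and hold little above background. The other 2 Hlf probe sets, which share 1 source sequence, were under the floor with 21.7 and 2.4 in the immobilized rat and 25.6 and 3.6 in the control rat. At the probe sets above the floor, the log2 ratios of Hlf and Tef were both smaller than the SD between probe sets. For NFIL3, the repressor at the same D-boxes, there was no value here.

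Of the nuclear receptor pair, Nr1d2 showed the larger difference. Its single probe set, U20796_at, had a signal of 79.3 in the immobilized rat and 114.8 in the control rat. It was 1.42-fold lower in the immobilized rat, a log2 ratio of -0.51, or 1.53 times the SD. Nr1d1, which encodes REV-ERB alpha, had signals of 63.6 in the immobilized rat and 72.5 in the control rat, a log2 ratio of -0.17 and 0.50 times the SD. Its other probe set, made from the same source sequence, had 34.3 in the immobilized rat, under the floor, and 42.2 in the control rat, just above it. Given as a bound, that probe set was at least 1.05-fold lower in the immobilized rat. The difference between Nr1d2 and Nr1d1 could not be tested with 1 array per group.

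Per2, which encodes an inhibitor of CLOCK and BMAL1, had a signal of 149.4 in the immobilized rat and 195.9 in the control rat. It was 1.29-fold lower in the immobilized rat, a log2 ratio of -0.37, or 1.15 times the SD. Bhlhe40, the E-box repressor also called DEC1, had 155.1 in the immobilized rat and 187.1 in the control rat, a log2 ratio of -0.25 and 0.77 times the SD. Its relative Bhlhe41, or DEC2, had signals of 6.7 in the immobilized rat and 8.9 in the control rat, both under the floor, so no ratio was taken. The Per2 and Bhlhe40 windows printed above hold the D-box with the E-box variant and the E-box. The Tef window holds an E-box as well. A link between these letters and the ratios was not tested.

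Read against all genes, the sizes were modest. A log2 ratio below 0 was found in 6 of the 7 clock genes, against 50.6% of the 2516 genes above the floor and 48.3% of the 1251 of them with a mean signal under 200, the range that holds all 7. At least 1.5-fold lower signals were found in 1 of the 7, Dbp, against 4.89% of all genes and 5.28% of the dimmer ones. At least 1.5-fold higher signals were found in 0 of the 7, against 8.39% of all genes and 9.83% of the dimmer ones. No clock gene was at least 2-fold lower, against 0.676% of all genes. In the order of ratios, 60 of the 2516 genes lay below Dbp, 171 below Nr1d2, 335 below Per2 and 570 below Bhlhe40. Hlf and Nr1d1 had 830 and 792 genes below them, and Tef had 1715. The median of the clock genes was -0.25, against -0.01 over all genes, and 2 of the 7, Dbp and Nr1d2, were farther from 0 than the SD of 0.41 over all genes.

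**Figure D2:**
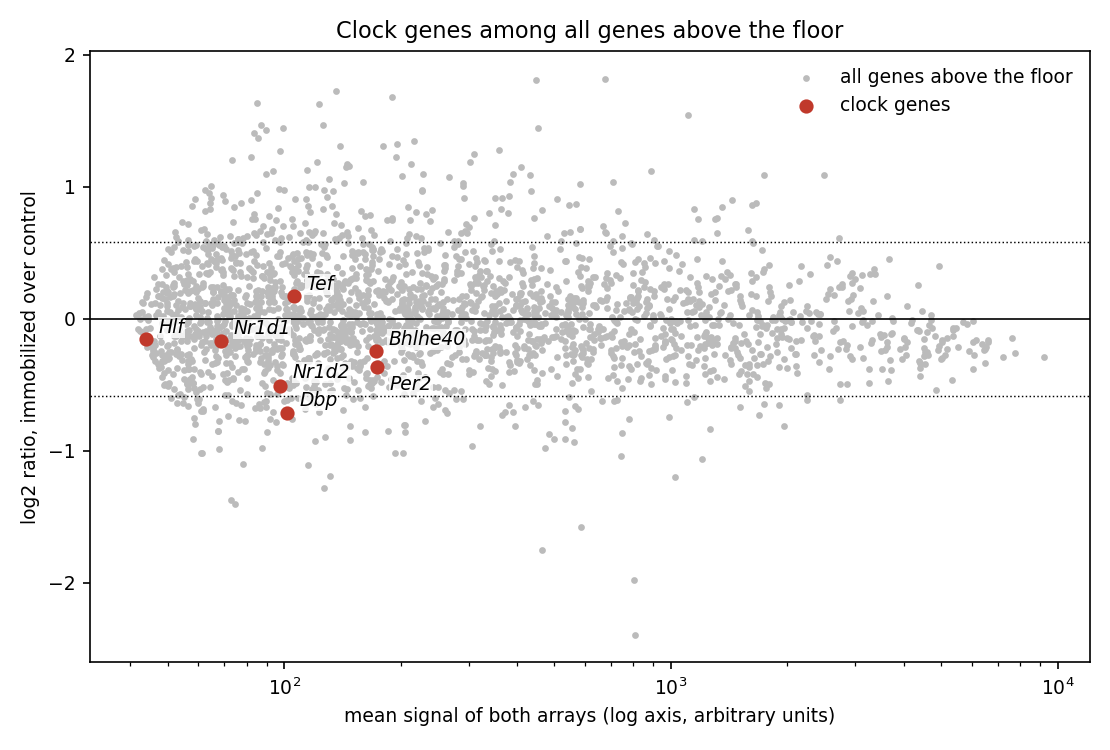
Log2 ratio of immobilized over control against the mean signal of both arrays (log axis, arbitrary units) for the 2516 genes above the floor, in grey, with the 7 clock genes in red and named. Dotted lines mark 1.5-fold. Dbp lies below the lower line at -0.71, the other clock genes lie between the lines, and Tef is above 0 at 0.17.

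The order of the 7 genes above the floor was the same under each setting tried for scaling, floor and probe sets. This holds as far as the genes had a value there. Scaling by a single factor or moving the floor cannot change the order. The mean over probe sets left each value as it was, since each gene had a single probe set above the floor. Bhlhe41 had a value only with a pseudocount, -0.13 with 16 and -0.05 with 50. Its place against Hlf differed between these. Dbp had log2 ratios of -0.77 to -0.47, Nr1d2 of -0.57 to -0.34, Per2 of -0.43 to -0.28 and Bhlhe40 of -0.32 to -0.19. Nr1d1 lay between -0.21 and -0.10, Hlf between -0.18 and -0.07, and Tef between 0.10 and 0.18. Dbp was less than 1.5-fold lower where a pseudocount of 50 was added, which draws dim signals towards each other. It was under the floor, with 4 other clock genes, at the 70th percentile.

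**Figure D3:**
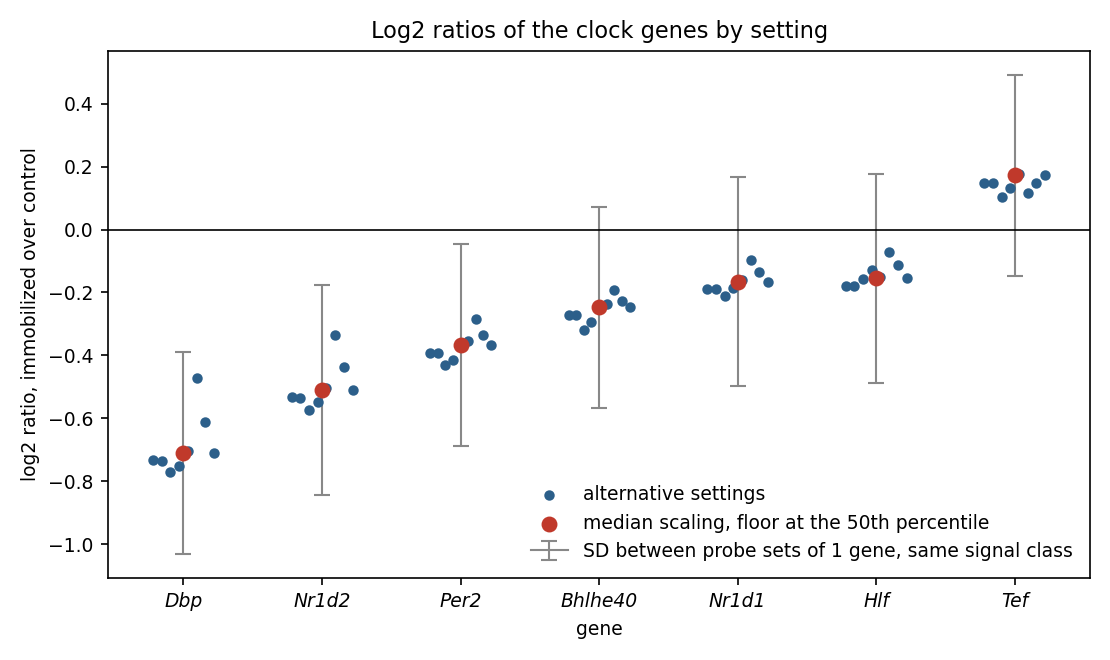
Log2 ratio of immobilized over control for each of the 7 clock genes above the floor, with the value under median scaling as a large red point and the values under the alternative settings as small blue points. Grey bars give the SD of log2 ratios between probe sets of 1 gene at similar signals, 0.33 or 0.32. The bars of Dbp, Nr1d2 and Per2 do not reach 0, and those of the other 4 genes cross it. With 1 probe set per source sequence the SD at the signals of Per2 was 0.36, about the size of its ratio of -0.37.

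Further clock genes were taken from a list, and few of them were on the array. Of 23 listed for the core loop and its kinases, 6 had a probe set. On both arrays 4 of these exceeded the floor, and all 4 were lower in the immobilized rat, with a median of -0.21. The list does not hold every gene linked to the clock: Cipc, an inhibitor of CLOCK outside it, had a log2 ratio of 0.44, and the kinase genes Csnk2a1 and Csnk1g2 had 0.38 and 0.10. Bmal1, the partner of CLOCK, had 123.9 in the immobilized rat and 136.4 in the control rat at its brightest probe set, a log2 ratio of -0.12. Its other probe set had 132.5 in the immobilized rat and 80.1 in the control rat, a log2 ratio of 0.75. The 2 Bmal1 probe sets thus disagreed in sign, and the direction of Bmal1, the gene that REV-ERB proteins repress, is not settled by these arrays.

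Casein kinase 1 enzymes phosphorylate PER proteins. Csnk1a1 had 291.3 in the immobilized rat and 483.1 in the control rat, 1.63-fold lower in the immobilized rat, while its second probe set was under the floor on both arrays. Csnk1d had log2 ratios of -0.10 and -0.42 at its 2 probe sets. Gsk3b, a kinase with several clock substrates, had -0.30 and -0.26 at its 2. Rorb and Timeless were under the floor on both arrays, with signals of at most 2.0.

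A list of 12 further bZIP factors, mostly of the C/EBP and CREB/ATF families, gave a mixed picture. The array held 10 of the 12, of which 6 exceeded the floor, 4 lower and 2 higher in the immobilized rat, with a median of -0.30. Atf3, a stress-induced factor, was 1.81-fold lower in the immobilized rat (113.3, against 209.0 in the control rat), and Cebpg, a partner of C/EBP factors, was 1.60-fold lower (85.7, against 139.7). Ddit3 was at -0.48 and Cebpd at -0.11, with -0.41 at another Cebpd probe set. In the other direction lay Cebpa at 0.31 and Cebpb, a C/EBP activator, at 0.70 with 121.0 in the immobilized rat and 75.7 in the control rat. Crem, the cyclic AMP responsive modulator, was at least 1.40-fold lower in the immobilized rat, where it was under the floor. Atf2, Cebpe and Creb1 were under the floor on both arrays. Outside the list, the bZIP factors Maf, Mafk and Nfe2l2 had log2 ratios of -0.39, -0.54 and -0.65.

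Genes listed as clock outputs from other work, not all of it in liver or intestine, were mostly slightly lower in the immobilized rat. The array held 28 output genes, of which 19 exceeded the floor, 14 lower and 5 higher, none by 1.5-fold at its brightest probe set, with a median of -0.16. A second probe set of Cdkn1a, a cell cycle inhibitor gene, had 110.8 in the immobilized rat and 35.8, under the floor, in the control rat, which makes it at least 2.80-fold higher. In the other direction, Si had a log2 ratio of -0.28 at its brightest probe set. Its other probe sets were 1.76-fold and 3.15-fold lower in the immobilized rat. At the brightest probe sets the lowest were Tspo, a mitochondrial cholesterol-binding protein (-0.50), the glucose transporter gene Slc5a1 (-0.43) and the efflux pump gene Abcc2 (-0.42). The highest were the nuclear receptor Nr0b2 (0.55), the cytochrome P450 Cyp3a9 (0.40) and the receptor Pparg (0.39). Slc5a1, Slc15a1, Slc2a2, Slc2a5 and Si are also among the villus genes described below, so the 2 lists are not independent.

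A list of basic helix-loop-helix factors, many of them binding E-boxes, and of their Id inhibitors showed no common direction. Of the 12 above the floor, 7 were lower in the immobilized rat and 5 higher, with a median of -0.12. Max was at -0.34, Arnt at -0.31 and Hes1 at -0.22 (0.04 at another probe set), against Id2 at 0.14, Usf2 at 0.22 and Srebf1, the sterol-responsive factor, at 0.66. Hif1a, the hypoxia factor, was at least 1.82-fold lower in the immobilized rat, with 37.1, under the floor, and 73.1 in the control rat.

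Per2 and Bhlhe40 are known to respond to hormonal or serum cues as well as to the clock, so genes of such responses were set beside them. Of 17 immediate early genes above the floor, 12 were lower and 5 higher in the immobilized rat, with a median of -0.34. Besides Atf3, Junb was 1.63-fold lower in the immobilized rat and Egr4 was at -0.57, and Egr1 was 1.57-fold higher, followed by Dusp5 at 0.40 and Fos at 0.38. Other probe sets had -0.09 for Junb, and -0.56 and 0.07 for Fos. Above the floor in the control rat alone were Nr4a2 and Nr4a3, at least 1.24-fold and 1.345-fold lower in the immobilized rat. Of 9 glucocorticoid-responsive genes above the floor, 7 were lower and 2 higher, with a median of -0.19. Nfkbia was at -0.57, the phosphatase gene Dusp1 at -0.48 and the glucocorticoid receptor gene Nr3c1 at -0.44, while Cebpb and Cdkn1a (0.34) were above 0. The immediate early and glucocorticoid-responsive lists share members such as Dusp1 and Sgk1, and Cebpb is also on the bZIP list.

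**Figure D4:**
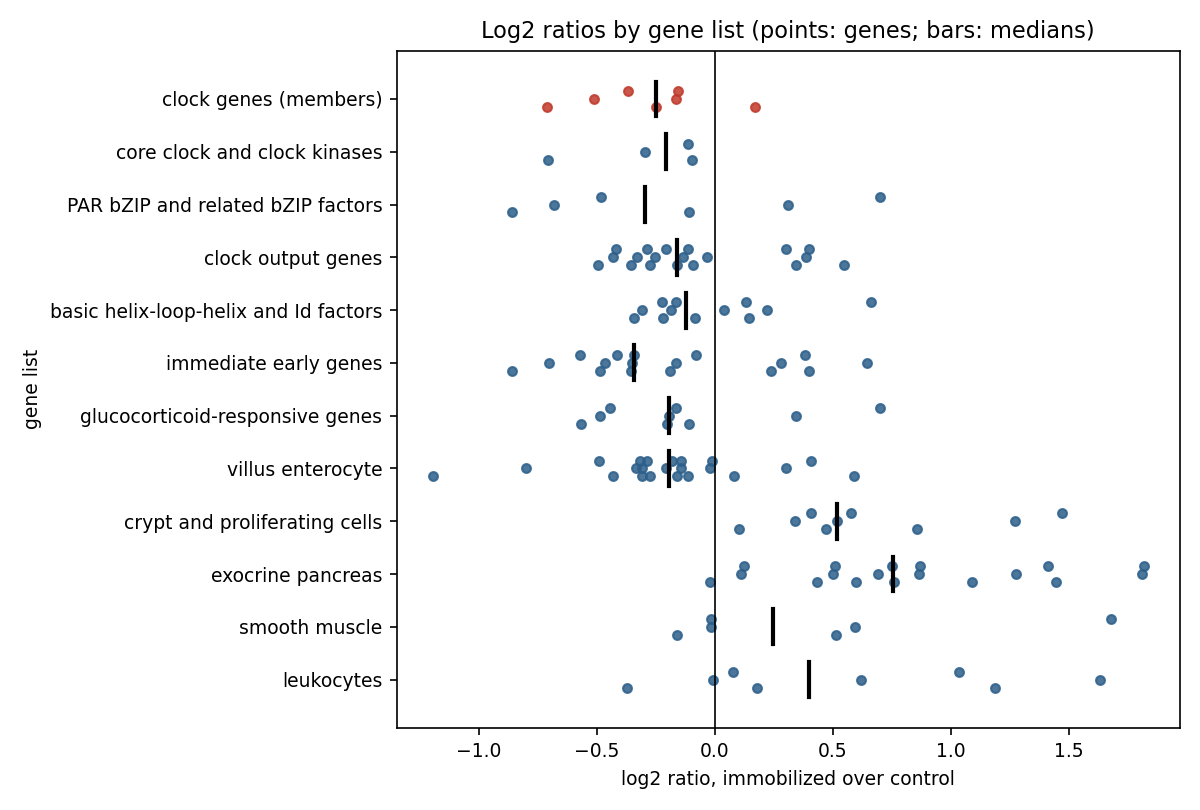
Log2 ratio of immobilized over control for the genes above the floor in each gene list, with the clock genes in red at the top and black bars at the medians. The clock genes (median -0.25) and the villus enterocyte genes (-0.19) lie mostly below 0, and the crypt (0.52) and exocrine pancreas genes (0.76) lie mostly above it. Some genes belong to more than 1 list.

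The arrays also differed in markers of the cell types in the mucosa and next to it. The 22 villus enterocyte genes had a median log2 ratio of -0.19, with 18 lower and 4 higher, from Ggt1 at -1.20, Enpep at -0.80 and Mep1b at -0.49 to Treh at 0.59. Their summed signal was 77587 in the immobilized rat and 89869 in the control rat. All 9 crypt and proliferation genes above the floor were higher, with a median of 0.52, among them Cdk4 (1.47) and Ccnb1 (1.27), and the list's summed signal was 2093 in the immobilized rat and 1501 in the control rat. Its stem cell markers Lgr5 and Ascl2 were under the floor on both arrays. The list does not hold every proliferation gene, and those outside it went both ways. Foxm1 had -0.35 and Mcm7 -0.16, while Plk1 had 0.29 and Pttg1 0.38. On the list, the other Ccnd1 probe sets above the floor had 0.30, -0.295 and 0.58.

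Exocrine pancreas genes were higher for 17 of 18, with a median of 0.76 and a summed signal of 14414 in the immobilized rat and 7909 in the control rat, led by Ctrb1 (1.82) and Sycn (1.81). Of 8 leukocyte genes above the floor 6 were higher (median 0.40, summed signal of the 18 with a probe set 7876 in the immobilized rat and 6937 in the control rat), with Ccl5 highest at 1.63. Of 6 smooth muscle genes above the floor 3 were higher and 3 lower (median 0.25, summed signal of the 10 with a probe set 1687 in the immobilized rat and 1520 in the control rat), and Acta2 was at 1.68 but at -0.13 at another probe set. The part of these cell types in the clock gene ratios was not tested. In bulk mucosa, fewer cells that carry a transcript and less of it per cell cannot be told apart.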

How the data were processed

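The deposited values were intensity values on a linear scale, 1 signal per probe set, which the authors made from 2 rat U34A arrays, 1 per group. The submitters' processing notes name MAS5, and per the labels' design text the manufacturer's software was version 4.0 with filtering and normalization routines, so the algorithm is not settled here. Of 8799 probe sets, 59 array controls were left out, 7006 had 1 gene symbol in the array annotation, 308 several and 1426 none. For 6985 the symbol was taken by gene ID from RefSeq tables, whether or not it differed from the annotation. The rest followed the scaling, floor, bounds and brightest probe set rule given in the results. No test was possible with 1 array per group. The spread between probe sets of a gene was pooled over genes within classes of signal. The ratios and scaling were tested on simulated data, with changes of at least 2-fold put into probe sets brighter than the clock genes. That simulation held no smaller changes and none in probe sets as dim as the clock genes. The genes and the 11 lists were chosen with earlier results of these data known. All listed clock, core clock and bZIP genes on the array were named, and in each other list the 3 genes per direction farthest from 0 at most. Further probe sets outside the clock and bZIP lists, Lgr5, Ascl2, Hif1a, Cipc, Csnk2a1, Csnk1g2, Maf, Mafk and Nfe2l2 were named after their values were seen. So were Foxm1, Mcm7, Plk1, Pttg1, Scnn1a, Nr4a2, Nr4a3, Ptprc, Gzmb and the genes shared by the output and villus lists. No genes were ranked by likeness of pattern, since 2 arrays give 1 difference a gene. The alternatives tried were quantile normalization, no further scaling, scaling to the 2% trimmed mean, loess with a span of 0.3, a floor at the 30th or at the 70th percentile, pseudocounts of 16 and 50 without a floor, the mean over probe sets, every probe set counted and thresholds of 1.25-fold, 2-fold and 3-fold. Tools were scipy 1.17.1, numpy 2.4.6, statsmodels 0.14.6, pandas 2.3.3 and matplotlib 3.10.9 under Python 3.11.15.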

Additional observations from a re-analysis of the deposited data

How the results depend on the processing

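No paired analysis was possible because each group has 1 array, and leaving out an array would leave no comparison. The number of clock genes with a log2 ratio below 0 was 6 or 7 under 9 of the alternatives and 2 of 2 with the floor at the 70th percentile, which leaves Per2 and Bhlhe40 alone above it. The number at least 1.5-fold lower was 1 under the scaling, lower floor and probe set alternatives and with a pseudocount of 16, and 0 with the floor at the 70th percentile or a pseudocount of 50. It was 3 at the lowest threshold tried, 0 at 2-fold and 0 at 3-fold. The median log2 ratio of the clock genes ranged from -0.32 to -0.14 and moved by less than the SD between probe sets. The 58 recomputed values of single clock genes kept their sign and moved by less than that SD. Much of this was fixed in advance. The mean over probe sets and counting every probe set could change no clock gene result, since each gene had a single probe set above the floor. The settings without scaling, with the trimmed mean and with another floor shifted every clock gene by the same amount. In size, 106 of 109 list medians also moved by less than the SD between probe sets. The exceptions were leukocytes with a pseudocount of 50 (0.05) and with every probe set counted (0.06), and smooth muscle with the floor at the 70th percentile (-0.15). The smooth muscle median of 0.25 also turned sign with every probe set counted (-0.02). The immediate early median of -0.34 shrank to -0.14 with a pseudocount of 50 and to -0.07 under the 70th percentile floor. The villus enterocyte median of -0.19 shrank to -0.12 with quantile normalization and to -0.11 with loess. With the mean over probe sets it was -0.31. Restricting the SD to 1 probe set per source sequence, a choice made after seeing the data, gave 0.35 in place of 0.31. It gave 0.37 for signals under 100 and 0.36 for signals of 100 to 200, about the size of the Per2 ratio of -0.37. Signals near the floor, above all those of Hlf and Nr1d1, limit what the ratios can show.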
